A study of Mus musculus with 6 samples.

Results

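Aquaporins are the water channels of the cell membrane, and 8 of their genes, Aqp1, Aqp2, Aqp3, Aqp4, Aqp5, Aqp6, Aqp8 and Aqp11, were examined in embryonic mouse kidneys that lack Frizzled receptors. The members were listed by gene name, with earlier results of these data known. The rule used measured values only to choose a representative probe set. Every probe set annotated to just one of the members was taken, which gave 18 probe sets of 45037 and 8 genes of 18193. Each gene is represented by its probe set with the highest mean log2 value over the 6 arrays.

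Whole kidneys were dissected at E13.5 from mice of a mixed C57BL/6, 129X1/SvJ and 129S1/Sv background, and RNA was hybridised to Affymetrix MOE430.2 arrays. The control group was Fz4+/+Fz8-/-, called Fz8-null here (arrays C1, C2 and C3), and the other group was Fz4-/-Fz8-/-, called double-null (arrays M1, M2 and M3). Both groups therefore lack Fz8, a receptor for Wnt ligands, and no wild-type kidney was compared. The labels call the 3 arrays of a genotype biological replicates, and do not state whether embryos were pooled for an array. The comparison asks what loss of Fz4 changes when Fz8 is already absent.

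In the adult kidney, Aqp1 carries water across the proximal tubule and the thin descending limb. In the collecting duct, the antidiuretic hormone vasopressin acts through its receptor and cAMP to move Aqp2 to the luminal membrane, and water leaves the cell through Aqp3 and Aqp4 at the other side. Aqp6, Aqp8 and Aqp11 are found largely on membranes inside the cell, and mice without Aqp11 develop cystic kidneys. At E13.5 the kidney is still branching and forming its first nephrons, and urine concentration lies far ahead.

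The promoter of Aqp2 is shown because cAMP signalling and GATA factors are known to act on this gene, and genes of both are measured below. It is the RefSeq window of GRCm38.p6 on the plus strand of chromosome 15, chr15:99578806-99579105, which runs from 250 bases before the start to 50 after it. Capitals mark both motifs searched. The core motif of the element through which cyclic AMP acts is CGTCA. The motif of GATA factors used here is TTATCT.
Aqp2: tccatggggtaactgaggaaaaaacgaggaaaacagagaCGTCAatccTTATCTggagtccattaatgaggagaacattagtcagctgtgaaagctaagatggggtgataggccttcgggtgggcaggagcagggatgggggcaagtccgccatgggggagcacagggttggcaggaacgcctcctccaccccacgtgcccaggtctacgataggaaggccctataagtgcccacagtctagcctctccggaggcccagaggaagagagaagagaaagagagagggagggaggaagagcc
Promoter windows were found for 7 of the 8 members, all but Aqp4, and both motifs were searched on both strands. Each had 1 match in the Aqp2 window, at positions 40 and 49, and 0 matches in those of Aqp1, Aqp3, Aqp5, Aqp6, Aqp8 and Aqp11. Of all 32851 windows of this length, 20.8% hold the first motif and 11.2% the second. The whole palindromic cAMP response element, TGACGTCA, which holds the first motif on each strand, is in 1.79% of the windows and in 0 of the 7. A match is a description of the letters and not of binding.

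The arrays were comparable in overall level, with array medians between 6.02 and 6.14 on the log2 scale. Fzd4, the gene of Fz4, read 10.84 ± 0.09 (SD, n = 3) in Fz8-null and 4.71 ± 0.74 (SD, n = 3) in double-null kidneys, which matches the labels. Fzd8 read 3.98 ± 0.42 and 3.69 ± 0.18 (SD, n = 3 in each). Marker genes of the kidney were well measured: 8 of 9 nephron progenitor genes and 11 of 14 ureteric epithelium genes lay on all 6 arrays above the reading of silent genes defined below. Some arrays stood apart. A control probe set for the B1 repeat read 11.83 on M1 and 12.08 on M2 and between 10.67 and 11.02 on the other 4 arrays. The mean of 7 liver genes was 8.94 on M2 and 9.28 on M3 against 5.50 to 6.60 elsewhere, and the mean of 10 erythroid genes was 8.41 and 8.51 against 5.95 to 6.49. The part of these differences in the aquaporin values was not tested. In whole kidneys, fewer cells of a type and less RNA per cell cannot be told apart.

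Most aquaporin genes gave low readings in both genotypes, and of the 8 only the representative of Aqp4 separated the genotypes. To judge what a low reading is, 42 genes not expected in kidney, such as those of photoreceptors, sperm and pituitary, were listed, of which 38 were measured. The 90th percentile of their means was 6.34, and their median was 4.25. These genes were themselves not level between the genotypes: 28 of 38 were higher in double-null kidneys, with a median difference of 0.23, 7 of them without overlap, and 4 were lower without overlap. Dim genes in general leaned the same way: of all genes with a mean under 6, 63.2% were higher, and 12.4% were higher without overlap. Over all genes 6.68% were higher and 12.2% lower without overlap. On single arrays the 90th percentile of the 38 genes ran from 6.15 on M1 to 7.09 on M2. Probe sets differ in brightness at the same RNA level, so this is a guide to detection and not a scale between genes. Of the 18 probe sets, 16 stayed at or below 6.34 on every array, and none lay above it on all 6. Only the brightest probe sets of Aqp1 and Aqp4 crossed it, the first on 2 arrays and the second on 4.

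**Figure D1:**
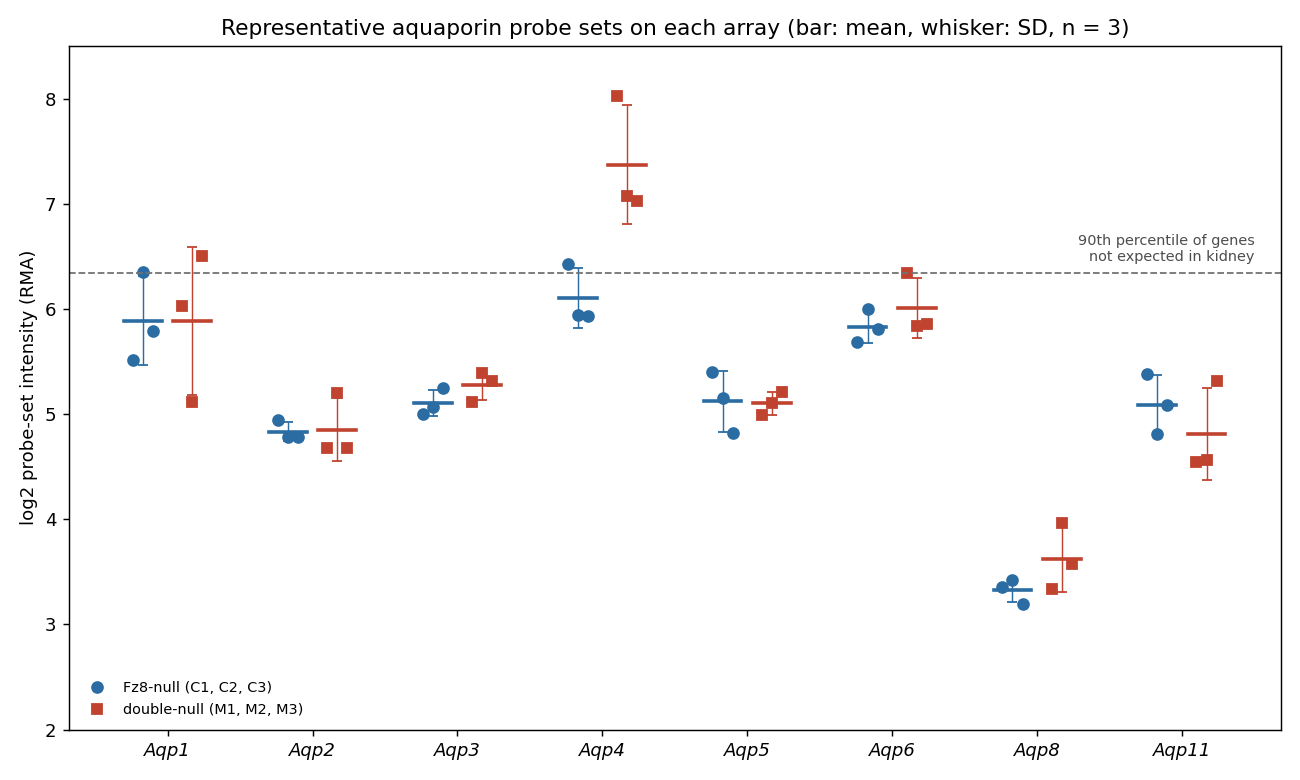
Log2 intensity of the representative probe set of each aquaporin gene, with 1 point per array, the mean as a bar and the SD as a whisker (n = 3 per genotype); the dashed line is the 90th percentile of the means of genes not expected in kidney, 6.34. Aqp4 is the one gene whose 3 double-null arrays all lie above its 3 Fz8-null arrays.

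None of the 8 genes passed an adjusted p of 0.05 over all genes (limma), where 0.0275% of all 18193 genes did, and 0 of the 18 probe sets passed over all probe sets, where 0.0111% did. At an unadjusted p under 0.05 there was 1 of 8, against 15.3% of all genes. The groups did not overlap for 1 of 8, against 18.9% of all genes. Of the 8 differences, 5 were above 0 and 3 below, with a median of 0.096. The median over all genes was -0.061, but it moved with brightness. It was -0.15 for the 11174 genes whose mean reached 6 and 0.096 for the 7019 genes below 6, so the median of the members matched that of dim genes to the digits given.

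**Figure D2:**
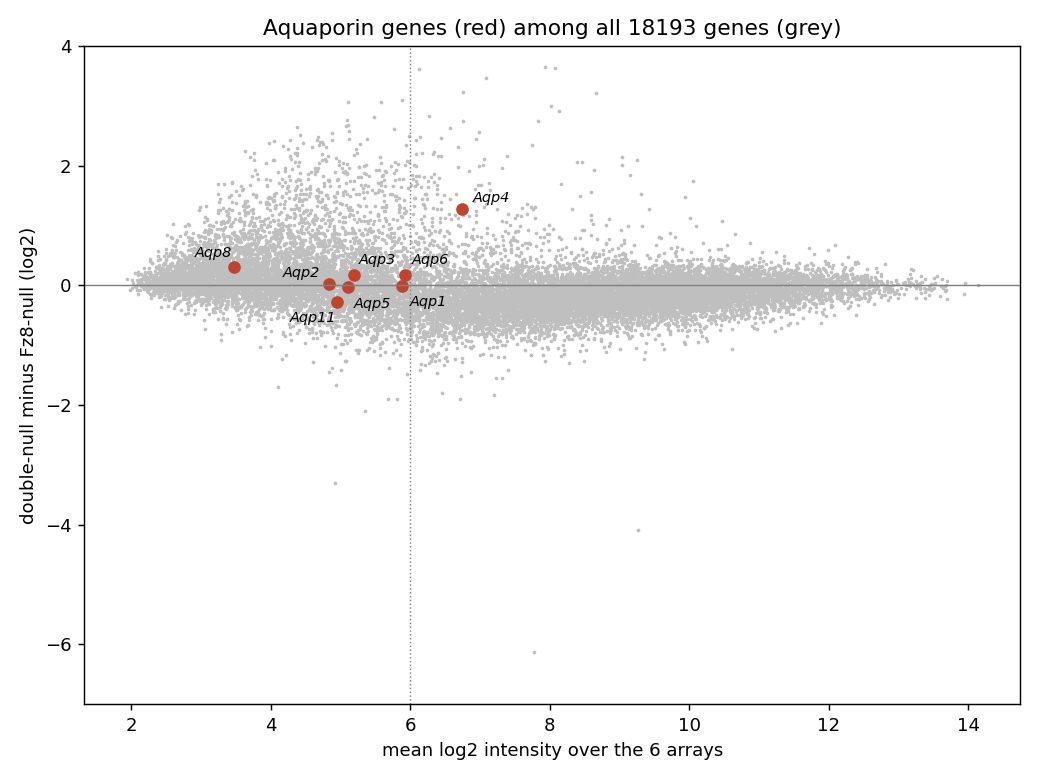
Difference between the genotypes against the mean log2 intensity over the 6 arrays for all 18193 genes (grey) and the 8 aquaporin genes (red); the dotted line marks a mean of 6. Aqp4 lies at a difference of 1.27, and the other 7 lie between -0.28 and 0.30 inside the cloud of dim genes.

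Aqp4 encodes the basolateral water channel of principal cells, which is also the channel of astrocytes and of fast skeletal muscle fibres. Its representative probe set (1434449_at) read 6.43, 5.94 and 5.93 on C1, C2 and C3 and 8.02, 7.07 and 7.02 on M1, M2 and M3. All 3 double-null arrays were above all 3 Fz8-null arrays, and M1 was the highest. The Fz8-null readings lay around the silent-gene guide, with 1 of 3 above it, and all 3 double-null readings lay above it. Against the 90th percentile of the silent genes on the same array, 0 of 3 Fz8-null and 2 of 3 double-null readings were above, since that percentile was 6.58 on C1 and 7.09 on M2. The means were 6.10 ± 0.28 and 7.37 ± 0.56 (SD, n = 3 in each), a difference of 1.27 on the log2 scale (SE 0.30, 95% interval 0.56 to 1.98). With the Fz8-null mean below the guide, this is a difference of readings, and no fold is given. The limma p was 0.00398 before and 0.314 after adjustment over all genes, so the difference did not pass. The exact permutation p was 0.1, the smallest that 3 arrays against 3 allow. Aqp4 had the 196th smallest p of the 18193 genes, and among genes 6.68% had a double-null group wholly above the Fz8-null group.

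The Aqp4 difference depended on which arrays entered and on the probe set. Without M1, the highest array, it was 0.94 (adjusted p = 0.380). Without M3 it was 1.44 and passed (adjusted p = 0.0255), in a fit where 18.1% of all genes passed. With array weights it was 1.89 and passed too (adjusted p = 0.00222), in a fit where 41.6% of all genes passed. The weights were 3.93 for M1, 0.48 for M2 and 0.21 for M3, so that fit rested mainly on M1, the highest array. With the B1 control signal as covariate the Aqp4 difference was 0.95 (adjusted p = 0.927). The other 2 Aqp4 probe sets were dim: 1425382_a_at read 3.51 ± 0.48 and 3.72 ± 0.15, and 1447745_at read 2.55 ± 0.22 and 2.59 ± 0.02 (Fz8-null, then double-null; SD, n = 3). Their differences were 0.21 (95% interval -0.40 to 0.82) and 0.040 (-0.33 to 0.41), so the shift was seen on 1 of 3 probe sets, and averaging all 3 gave 0.51 (adjusted p = 0.297).

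**Figure D3:**
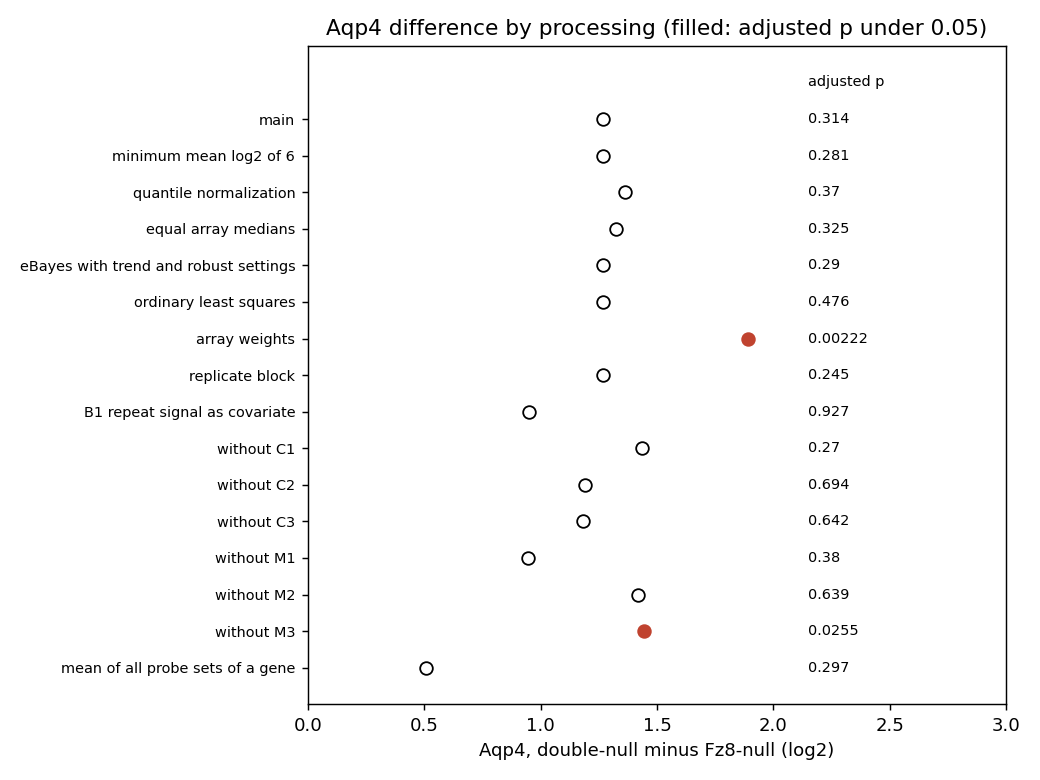
Aqp4 difference (double-null less Fz8-null, log2) as tested and under each alternative, with the adjusted p over all genes beside it; filled points have an adjusted p under 0.05. The difference is above 0 in every row, from 0.51 with the mean of all probe sets to 1.89 with array weights, and passes only with array weights and without M3. The rows for moderation, ordinary least squares, the replicate block and the minimum mean repeat the tested difference by design.

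Genes whose values followed Aqp4 most closely over the 6 arrays were Dapl1 (Pearson r = 0.99), Esrrg (r = 0.98) and Cenpk (r = 0.96), out of 7056 genes of a mean over the arrays of 6 or more and an SD of at least 0.2. Esrrg encodes an orphan nuclear receptor, and Cenpk a kinetochore protein. On C1, C2 and C3 Dapl1 read 7.15, 6.68 and 6.52, and on M1, M2 and M3 it read 8.51, 7.53 and 7.51. All 4 genes were highest on M1 and, among Fz8-null arrays, highest on C1. Esrrg differed by 1.20 (SE 0.26) and Dapl1 by 1.07 (SE 0.31), neither past adjustment (limma adjusted p = 0.314 for each). With 6 points that share genotype and array, 49 genes had an r above 0.9, so this likeness is a description.

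Markers of other cells known to carry Aqp4 lay in both directions. Of 9 measured genes of neurons, glia and neural crest, 7 were higher in double-null kidneys and 4 of them without overlap. Over all genes 6.68% were higher without overlap. That share was 12.4% for genes with a mean under 6 and 3.08% for the rest. Only 2 of the 9 lay on all arrays above the silent-gene guide. The list mean ran from 5.21 to 5.40 in Fz8-null and from 5.59 to 5.92 in double-null arrays. Fabp7, a lipid carrier of glial precursors, differed by 0.62 and S100b, a glial calcium-binding protein gene, by 0.67 (limma adjusted p = 0.299 and 0.314); all S100b readings were below the silent-gene guide. Gfap, the filament gene of astrocytes, read between 3.92 and 4.63 on all arrays, under the median of the silent genes on M1 and M2. Its difference was -0.095 (limma adjusted p = 0.813), opposite in sign to those of Fabp7 and S100b. The mean of the neuron, glia and neural crest list was highest on M2, and among double-null arrays it was lowest on M1. Fabp7 within the list read 7.93, 7.88 and 7.77 on M1, M2 and M3, nearly level, whereas Aqp4 stood out on M1. Of 8 skeletal muscle genes 7 were lower, and the list mean was lowest on M1, at 4.93. The part of these cells in the Aqp4 reading was not tested.

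**Figure D4:**
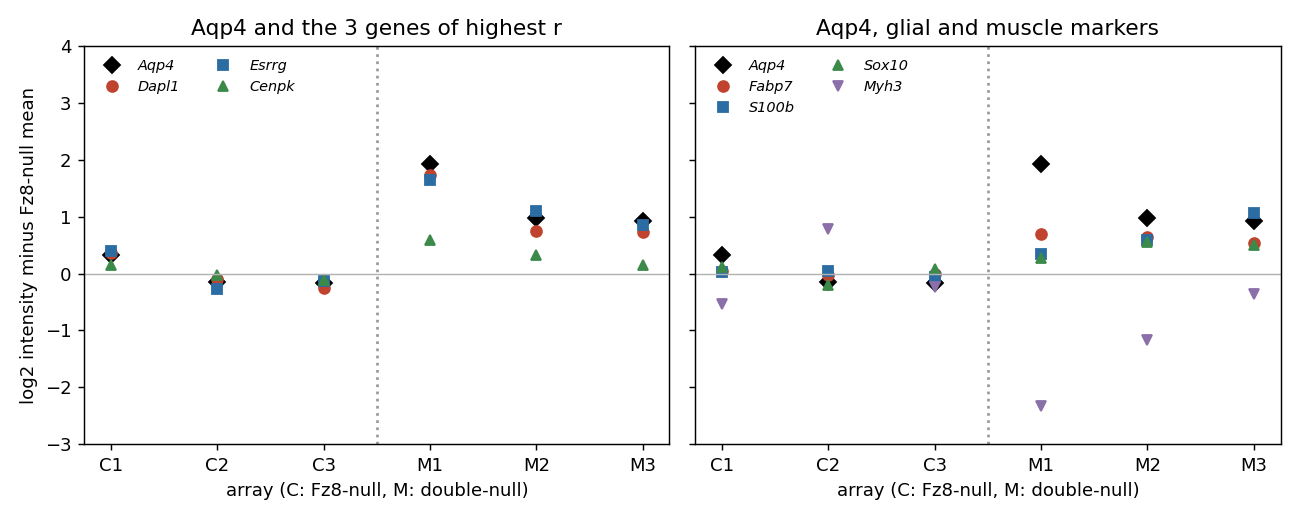
Log2 intensity minus the gene's Fz8-null mean on each array, for Aqp4 with the 3 genes of highest Pearson r (left) and for Aqp4 with 3 glial genes and the muscle gene Myh3 (right). The 3 glial genes drawn are all higher in double-null kidneys, and Gfap, with a difference of -0.095, is not drawn. Dapl1, Esrrg and Cenpk are highest on M1 like Aqp4. The glial gene Fabp7 is nearly level over M1, M2 and M3 (log2 readings of 7.93, 7.88 and 7.77). Of the other genes on the right, S100b is highest on M3, Sox10 is highest on M2 and Myh3 is lowest on M1.

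Aqp2, the vasopressin-regulated channel, read low and did not differ detectably between the genotypes. Its single probe set (1418903_at) read 4.94, 4.78 and 4.78 in Fz8-null and 4.68, 5.20 and 4.68 in double-null kidneys. M2 was the highest array and the other double-null arrays were the lowest, so the groups overlapped. C2 and C3 held the same value to every deposited digit, as did M1 and M3. The difference was 0.020 (SE 0.18, 95% interval -0.40 to 0.44; limma adjusted p = 0.959), and no array came above the silent-gene guide.

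Aqp3, which passes water and glycerol at the basolateral side, was likewise low. Its representative (1450460_at) read 5.00, 5.07 and 5.24 in Fz8-null and 5.12, 5.39 and 5.32 in double-null kidneys. M2 and M3 were above all Fz8-null arrays and M1 was among them. The difference was 0.17 (SE 0.14, 95% interval -0.16 to 0.50; limma adjusted p = 0.533). The other 3 Aqp3 probe sets stood at -0.14, -0.071 and -0.57, opposite in sign to the representative, and all 4 have an interval that includes 0. One of them, 1447727_at, had no overlap (lowest Fz8-null array 4.16, highest double-null array 4.14), a gap smaller than its SD in either group. Together with the representative of Aqp4 it made 2 of 18 aquaporin probe sets without overlap, against 18.6% of all 45037 probe sets.

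Aqp1, the constitutive channel of the proximal tubule, of endothelium and of red cells, varied more between arrays of a genotype than between genotypes. Its probe set (1416203_at) read 5.52, 6.35 and 5.79 on C1, C2 and C3 and 6.03, 5.12 and 6.50 on M1, M2 and M3. M2 was the lowest of all arrays and M3 the highest. The means were 5.89 ± 0.43 and 5.88 ± 0.71 (SD, n = 3), a difference of -0.0060 (SE 0.38, 95% interval -0.91 to 0.89; limma adjusted p = 0.995). Differences inside this interval, in either direction, are compatible with these arrays. The sign turned with single arrays: the difference was 0.38 without M2 and -0.32 without M3.

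Markers of cell types that carry Aqp1 were uneven over the same arrays, and the part of these cells in the Aqp1 reading was not tested. The 10 erythroid genes averaged 8.41 on M2 and 8.51 on M3, the arrays where Aqp1 was lowest and highest. The 10 endothelial genes averaged 7.73 on M2, their lowest value, and between 8.19 and 8.53 on the other arrays. Kdr, the main VEGF receptor gene of endothelium, differed by -0.80 and Esam, a junction gene, by -0.61 (limma adjusted p = 0.314 for each). Of 13 genes of the proximal tubule and thin descending limb, 10 were higher and 3 lower, 3 lay on all arrays above the silent-gene guide, and none passed. Hnf4a, a transcription factor gene of the proximal tubule, read 7.50, 7.44 and 7.53 in Fz8-null and 9.10, 7.82 and 8.54 in double-null kidneys, without overlap. Its difference was 1.00 (SE 0.30, limma adjusted p = 0.314), and 0.70 without M1, its highest array. All 7 measured liver genes were higher in double-null kidneys too, and the part of liver RNA in the Hnf4a reading was not tested. Slc5a2, the glucose transporter gene of the early proximal tubule, lay the other way at -0.96 (SE 0.26, limma adjusted p = 0.314).

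Aqp5 and Aqp6 lie next to Aqp2 in the mouse genome, the 3 being consecutive protein-coding genes of chromosome 15 in the RefSeq annotation of GRCm38.p6. Aqp5, a channel of secretory glands, read 5.40, 5.15 and 4.82 in Fz8-null and 4.99, 5.11 and 5.21 in double-null kidneys (1418818_at). The double-null values fell inside the Fz8-null range, and the difference was -0.022 (SE 0.18, 95% interval -0.44 to 0.40; limma adjusted p = 0.957). Aqp6, an anion-permeable channel of acid-secreting intercalated cells, read 5.68, 6.00 and 5.81 and then 6.34, 5.83 and 5.86 (1459982_a_at). M1 alone exceeded the Fz8-null arrays, and it equalled the silent-gene guide to the digits given without passing it. It did lie above the 90th percentile of the silent genes on M1 itself, 6.15. The Aqp6 difference was 0.18 (SE 0.18, 95% interval -0.25 to 0.61; limma adjusted p = 0.614), and it was 0.016 without M1. Its other 3 probe sets stood between -0.18 and 0.061.

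Aqp8, a channel that also passes ammonia and is found in mitochondria, read below the median of the silent genes on all 6 arrays. It read 3.36, 3.42 and 3.20 in Fz8-null and 3.34, 3.96 and 3.57 in double-null kidneys (1417828_at). M2 and M3 were above every Fz8-null array and M1 was not. The difference was 0.30 (SE 0.18, 95% interval -0.14 to 0.74; limma adjusted p = 0.427). It was 0.13 without M2 and 0.077 with array weights.

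Aqp11, the channel of the endoplasmic reticulum whose loss gives cysts, read 5.38, 4.81 and 5.09 in Fz8-null and 4.55, 4.57 and 5.31 in double-null kidneys (1429254_at). M1 and M2 were below every Fz8-null array and M3 lay near the top. The difference was -0.28 (SE 0.25, 95% interval -0.89 to 0.32; limma adjusted p = 0.575). Left-out arrays moved it from -0.14 without C1, -0.15 without M1 and -0.16 without M2 to -0.53 without M3. The other 2 Aqp11 probe sets stood at 0.11 and -0.20 with intervals that include 0.

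Aqp11 and Aqp8 share chromosome 7 with Fzd4, the deleted gene, with 34 and 493 protein-coding genes between in GRCm38.p6. The measured genes on either side of Aqp11 differed from it and from each other. Clns1a, whose product takes part in assembling splicing complexes, read 12.01 ± 0.16 and 12.19 ± 0.07 (SD, n = 3), a difference of 0.18. Myo7a, an unconventional myosin gene, read 8.09 ± 0.21 and 6.55 ± 0.19 (SD, n = 3), a difference of -1.54 (SE 0.17, limma adjusted p = 0.0764). Beside Aqp8, Lcmt1 differed by 0.032 and Hs3st4, a heparan sulfate sulfotransferase gene, by -0.36 (limma adjusted p = 0.943 and 0.325). No neighbour passed.

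**Figure D5:**
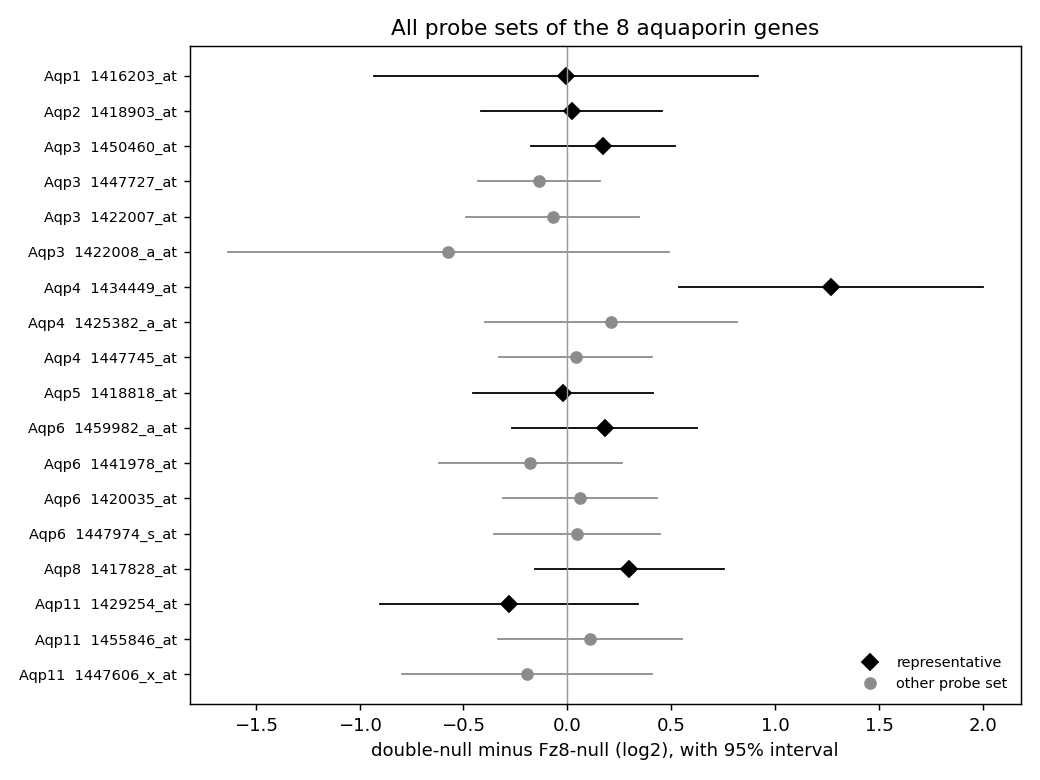
Difference between the genotypes (double-null minus Fz8-null, log2) with its 95% interval for all 18 probe sets of the 8 aquaporin genes; diamonds are representatives and circles other probe sets. Only the representative of Aqp4 has an interval above 0, from 0.54 to 2.00 in the fit over probe sets, and the other 17 include 0.

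The aquaporin genes outside the 8 were as low. Aqp7 and Aqp9, which carry glycerol as well as water, Aqp12, a pancreatic member, and Mip, the lens aquaporin, had means between 3.24 and 5.72 in either genotype. None of the 4 passed, with limma adjusted p from 0.405 for Aqp12 to 0.883 for Aqp7. Aqp12 read 5.57, 5.41 and 5.49 and then 5.69, 5.60 and 5.86, without overlap and with a difference of 0.23 (SE 0.13).

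Genes around the aquaporins were better measured than the channels themselves, and none of them passed. Over 7 lists of vasopressin signalling, Aqp2 traffic, transcription regulators and tubule segments, 94 of 102 genes were measured; 37 were higher and 57 lower, with a median of -0.082, against -0.061 over all genes. With limma, 0 of 94 passed over all genes and 17 had an unadjusted p under 0.05, which is 18.1% against 15.3% of all genes. The groups did not overlap for 24 (7 higher, 17 lower), which is 25.5% against 18.9% of all genes. Without M1, 2 passed, Slc4a1 and Car2, which erythroid cells share with intercalated cells, where 0.214% of all genes passed. Without M3, 11 passed, which is 11.7% and below the 18.1% of all genes in that fit.

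Of 24 genes of the vasopressin receptor and cAMP signalling, 5 were higher and 19 lower, 7 of the latter without overlap (12.2% of all genes were lower without overlap), with a median of -0.16. Of these 24, 19 lay on all arrays above the silent-gene guide, and among all genes with a mean of 6 or more 71.5% were lower, with a median of -0.15. Avpr2, the vasopressin receptor of the collecting duct, was low: it read 4.55, 4.72 and 4.46 in Fz8-null and 4.65, 4.81 and 5.26 in double-null kidneys (difference 0.33, SE 0.19). Adenylyl cyclase and coactivator genes had the smallest p: Adcy3 stood at -0.87 (SE 0.24) and Crtc1, a CREB coactivator gene, at -0.56 (SE 0.17), each with a limma adjusted p of 0.314. Adcy6, a cyclase of the vasopressin response named here for its role, read 8.99, 8.94 and 8.90 in Fz8-null kidneys and 7.87, 7.92 and 9.19 on M1, M2 and M3. The groups overlapped, and the difference was -0.62 (SE 0.35, limma adjusted p = 0.397). Adcy6 passed without M3, the array that stood with the Fz8-null group (-1.05, limma adjusted p = 0.00610), in the fit where 18.1% of all genes passed. Creb1, whose product binds the element searched in the promoter, read between 9.71 and 10.16 on all arrays, with a difference of 0.087.

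Of 18 measured genes of Aqp2 vesicle traffic, 6 were higher and 12 lower, with a median of -0.060. Vamp2, a vesicle SNARE gene, stood at -0.45 and Rab11a, of recycling endosomes, at 0.36, both without overlap (limma adjusted p = 0.318 and 0.324). Of 14 measured transcription regulators, 5 were higher and 9 lower. Besides Hnf4a they included Elf3, an epithelial factor that acts on Aqp2, which stood at -0.69 (SE 0.23, limma adjusted p = 0.314) with every reading below the silent-gene guide, between 4.26 and 5.58. Gata3, of the ureteric lineage, read 8.76, 8.60 and 8.51 and then 8.09, 8.29 and 8.35, a difference of -0.38 (limma adjusted p = 0.315). Gata2 read from 9.21 to 10.11 with overlap. Gata2 and Gata3 were thus read well above the silent-gene guide on all arrays on which Aqp2 was below it.

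Collecting duct genes were split. Of 10 principal cell genes, 4 were higher and 6 lower, and 5 lay on all arrays above the silent-gene guide. Hsd11b2, which protects the mineralocorticoid receptor from glucocorticoid, read 10.06, 9.88 and 9.81 and then 9.40, 9.31 and 9.63, a difference of -0.47 (SE 0.14, limma adjusted p = 0.314). Stc1, a secreted glycoprotein gene, stood at -0.49 (SE 0.15, limma adjusted p = 0.314). Fxyd4, a regulator gene of the sodium pump in the collecting duct, had the largest difference of the list and lay the other way, at 0.80 (SE 0.31, limma adjusted p = 0.320), with overlap; it is named after its values were seen. Of 8 intercalated cell genes, 3 were higher and 5 lower, and Foxi1, the factor that specifies these cells, read at most 2.96. Kit differed by -0.92 and Car2 by 1.48 (limma adjusted p = 0.314 and 0.328), and Car2 read 11.44 and 11.53 on M2 and M3 and between 9.00 and 9.41 elsewhere. In the urothelium list, where Aqp3 is also known, 4 of 7 genes were higher and 3 lower, with Upk1b at 0.39 and Upk1a at -0.55, both below the silent-gene guide on all arrays (limma adjusted p = 0.400 and 0.437). Of 11 measured transport genes of other segments, 6 were higher and 5 lower, with Slc12a2, a sodium-potassium-chloride carrier gene, at -0.34 (limma adjusted p = 0.314). Cldn16, a tight junction gene, read 3.65, 3.70 and 3.26 in Fz8-null and 5.42, 5.41 and 3.47 in double-null kidneys. All 6 readings were below the silent-gene guide and M3 lay among the Fz8-null arrays. Its difference was 1.23 (limma adjusted p = 0.327), 0.90 without M1 and 0.91 without M2. Without M3 it was 1.88 and passed (limma adjusted p = 0.00439), in the fit where 18.1% of all genes passed.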

How the data were processed

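RNA from whole kidneys was measured on 6 Affymetrix arrays, 3 per genotype. The deposited table holds log2 probe-set intensities made by the authors with RMA, per the submitters' processing notes (version not stated), and they were used as they are. Of 45101 probe sets, 64 controls were set aside. Probe sets with 1 gene symbol in the platform annotation (34945) gave 18193 genes, each read from its brightest probe set. Precision is limited by the 3 arrays per genotype.

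Double-null and Fz8-null arrays were compared with limma 3.58.1 (R 4.3.3; lmFit, eBayes), two-sided, with Benjamini-Hochberg adjustment over all genes, or over all probe sets where a probe set is named, and a threshold of 0.05. The exact permutation test was two-sided. The fit was tested on simulated data. The members and lists were chosen with earlier results of these data known. Named were all members, the 2 genes of smallest p in a list (genes past the threshold where any), the 3 genes most correlated with a member whose mean was at least 6, and neighbours on the chromosome of Fzd4; others were named for their role after their values were seen. Alternatives were another normalization, filter, moderation, weighting, block, covariate, summary or threshold, and leaving out each array.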

Additional observations from a re-analysis of the deposited data

How the results depend on the processing

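No aquaporin gene was called in the comparison as tested, and 1 was, Aqp4, with array weights and without M3; leaving out single arrays gave 0 to 1. Of the 94 genes around the aquaporins, 35 were called with array weights, in a fit where 41.6% of all genes were. When an array was left out, 0 to 11 of the 94 were called. The 11 were called without M3 and are 11.7%, against 18.1% of all genes in that fit. Over all genes, 5 were called as tested, 1 with ordinary least squares, 7576 with array weights, 3 with the B1 repeat covariate, 11 at an adjusted p of 0.1, 1 with the mean of all probe sets, and 2 to 3292 when an array was left out. Over all probe sets, 5 were called as tested, 2 with a minimum mean of 6, 0 with ordinary least squares, 20686 with array weights, and 0 to 10747 when an array was left out. With the replicate number as a block, 3 genes, 0 probe sets and 0 aquaporin genes were called; arrays that share a number had residual correlations of 0.17, -0.14 and 0.090, C2 correlated best with M3 (0.25), and the numbers were not taken as pairs.

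Aqp4, Aqp6 and Aqp8 kept their direction under every alternative in which they were fitted, but some alternatives cannot change a difference. These were the other moderation, ordinary least squares, the replicate block, the threshold of 0.1 and, for Aqp4, the minimum mean. The size moved: Aqp6 ran from 0.016 without M1 to 0.36 with array weights, and Aqp8 from 0.077 with array weights to 0.44 without M1. Small differences turned sign, none of them called. Aqp1 was 0.049 with equal array medians, 0.79 with the B1 covariate, and -0.32 to 0.38 when an array was left out. Aqp2 was -0.10 with quantile normalization, -0.060 with array weights, -0.23 with the B1 covariate, and -0.15 to 0.11 when an array was left out. Aqp3 was -0.15 with the mean of its probe sets, and Aqp11 was 0.10 with the B1 covariate. Aqp5 was 0.034 with equal array medians and -0.17 to 0.12 when an array was left out. Where an array was left out, the remaining 2 were taken to vary like the other group. With a minimum mean of 6, Aqp4 was the one aquaporin gene fitted. The causes were not tested. Counting a gene as read above silent genes from a mean of 6 in place of 6.34 left the number at 1 of 8. With 3 arrays a genotype and most members near the reading of silent genes, a change in those members would be understated or missed.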
